A study of Homo sapiens with 9 samples.

Results

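TRIB1, TRIB2 and TRIB3 are the 3 human Tribbles pseudokinases, and their rows were taken by gene symbol from a table of 22587 genes measured by RNA-seq in HepG2 cells. HepG2 is an established human liver tumor line. Cells were grown in high-glucose DMEM with fetal bovine serum and either kept supplied with glutamine (Gln; group ADD) or moved to Gln-free DMEM for 12 h (group DE12) or 24 h (group DE24). Each group held 3 libraries, 9 in all, from a single line, and the sources name no engineered genetic change for them. The labels give GlutaMAX, a stable Gln dipeptide, as the supply of the ADD cultures, whereas the treatment protocol places it in the Gln-free medium of the deprived cultures, so the exact Gln supply of each group is not settled here. The sources do not say that libraries of a group came from separate cultures, and the p-values below then measure only the spread between these samples, which may be technical.

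Tribbles proteins have a kinase fold with little or no catalytic activity. They act as scaffolds: the pseudokinase domain holds a substrate, the C-terminal tail recruits the E3 ubiquitin ligase COP1, and the bound substrate is ubiquitinated and degraded. The C/EBP transcription factors and acetyl-CoA carboxylase are substrates of this kind, and Tribbles proteins also bind MEK1 and AKT. TRIB3 is a known target of the integrated stress response, in which kinases of the EIF2AK family phosphorylate eIF2α and the transcription factor ATF4 is translated. ATF4, often with C/EBP-family partners such as CHOP (encoded by DDIT3), binds CARE elements in its target genes. TRIB1 is known in the liver for its effect on lipogenesis and plasma lipids.

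A search of genome sequence upstream of TRIB2 and TRIB3 is shown first, for the repeated motif it found at TRIB3. TRIB1 was not searched here. In RefSeq (GRCh38), promoter windows of 250 bases before to 50 after a start were held for TRIB2 and TRIB3. The CARE core was searched as TGATGNAA on both strands, in those windows and in the 300 bases directly upstream of them. It was absent from both windows of TRIB2 and from the promoter window of TRIB3. In the 300 bases upstream of the TRIB3 window it occurred 3 times, at 20:380892-380899, 20:380925-380932 and 20:380958-380965, which is 403, 370 and 337 bases before the first RefSeq start at position 381295. Each match lay on the minus strand and therefore read TTGCATCA on the plus strand, with 33 bases from one match to the next. The 30 bases around each match were the same letter for letter in all 3 places, and they are given once, on the plus strand, with the match in capitals.
TRIB3 repeat: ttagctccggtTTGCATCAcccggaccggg

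The first copy of this stretch spans chr20:380881-380910, the second chr20:380914-380943 and the third chr20:380947-380976. In the GENCODE annotation all 3 lie in the first exon (380760 to 381169), annotated as UTR, of a transcript of TRIB3 that starts upstream of the RefSeq starts, and within an intron of a transcript that starts at 362835. Of 27305 genes with such windows, 4.65% held at least 1 CARE core in the upstream 300 bases and 4.46% in the promoter window. Only 1 gene, 0.00366% of them, held 3 or more in the upstream stretch, and that gene was TRIB3. The bound of 3 equals the count at TRIB3, whose 3 matches are copies of 1 stretch, so this share is a description only. The AP-1 motif TGANTCA (8.38% of upstream stretches, 9.37% of promoter windows) and the CRE TGACGTCA (0.502% and 2.25%) were not found in the windows of TRIB2 or TRIB3, so no match of 1 motif overlapped another there. These matches describe letters in the reference and are no measure of binding. The promoter windows of both genes were rich in G and C, at 77.3% for TRIB2 and 77.0% for the first window of TRIB3.

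The deposited values are FPKM, fragments scaled to transcript length and to the depth of the library, so levels of different genes are set side by side per length. Depth was even, at 29621270 to 36261546 fragments per library. The hepatocyte-like markers checked were present in every library (9 of 9 genes, from 8.74 FPKM for GPC3 to 3910 FPKM for ALB), with a sum of 7481–7580 FPKM in ADD, 6560–6632 in DE12 and 6341–6672 in DE24. Of the leukocyte markers, PTPRC and CD3E have no row in the table used here, CD68 lay at 21.2 to 36.3 FPKM and LYZ at 524 to 785 FPKM, and their sum was lowest in DE12 (552–592 FPKM, against 767–787 in ADD and 758–806 in DE24). Endothelial markers averaged at most 0.191 FPKM. Fibroblast or stellate markers averaged at most 0.403 FPKM; their sum went from 0.113–0.181 FPKM in ADD to 0.317–0.505 in DE12 and 0.608–0.780 in DE24 through PDGFRB, while COL1A1, COL3A1 and DCN stayed at 0.0171 FPKM or less in every library. The part of these marker shifts in the results below was not tested. In bulk samples, fewer cells of a type and less RNA per cell cannot be told apart.

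TRIB3 was the most abundant member in all 9 libraries and rose about 4-fold on Gln deprivation. TRIB1, the second, rose about 3-fold. TRIB2 was low, at 0.231 to 0.401 FPKM over the libraries, and no change of it was detectable at this depth.

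TRIB3, on chromosome 20 (362835 to 397559, plus strand), encodes the stress-induced member that the study took forward from these same libraries, so its rise here is not independent of that choice. It measured 64.1, 65.9 and 62.9 FPKM in the ADD libraries (replicates 1 to 3). It measured 272, 266 and 246 FPKM in DE12, and 262, 242 and 248 FPKM in DE24. All 6 deprived libraries lay far above the 3 ADD libraries, and the 12 h and 24 h values overlapped. The means were 64.3 ± 1.48, 261.6 ± 13.8 and 250.7 ± 10.2 FPKM (SD, n = 3 each), 4.07 and 3.90 times the ADD mean at 12 h and 24 h. The ADD libraries held 6912 to 7106 TRIB3 fragments and the deprived libraries 24885 to 29833, so counting error was 1.19% of the mean or less in each group, below the observed coefficients of variation of 2.30%, 5.25% and 4.07%.

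On the scale of log2(FPKM + 0.1), limma fitted over all genes put the change of TRIB3 at 2.02 (SE 0.0451, adjusted p = 1.73e-10) at 12 h and 1.96 (SE 0.0451, adjusted p = 1.86e-10) at 24 h. By this value TRIB3 was 35th highest of 11880 tested genes at 12 h and 46th at 24 h. Between 12 h and 24 h the change was -0.06 (95% interval -0.161 to 0.0387, adjusted p = 0.377), which allows anything from 0.894-fold to 1.03-fold. By mean level TRIB3 moved from rank 917 in the table in ADD to rank 169 in DE12 and 163 in DE24.

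TRIB1 encodes the member best known as an adaptor that brings C/EBPα to COP1, and lies on chromosome 8 (125430358 to 125438403, plus strand). Its ADD libraries measured 12.1, 13.5 and 11.6 FPKM. The DE12 libraries measured 35.2, 32.6 and 33.1 FPKM, and the DE24 libraries 41.9, 42.1 and 40.6 FPKM. The 3 groups did not overlap, with all ADD values lowest and all DE24 values highest. The means were 12.4 ± 0.996, 33.6 ± 1.38 and 41.5 ± 0.809 FPKM (SD, n = 3 each), 2.72 and 3.35 times the ADD mean. Between 1528 and 5564 fragments stood behind each value.

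The log2 change of TRIB1 was 1.44 (SE 0.056, adjusted p = 1.01e-08) at 12 h and 1.74 (SE 0.056, adjusted p = 1.58e-09) at 24 h, the 94th and 69th highest of the genes tested. The further rise from 12 h to 24 h was 0.30 (95% interval 0.18 to 0.428, adjusted p = 0.00384 by limma). Its rank by mean level went from 4369 to 1780 and then 1398. Both tested members were called higher at 12 h and at 24 h. Over all 11880 genes, 29.1% were called higher and 31.0% lower at 12 h, and 33.0% higher and 31.7% lower at 24 h (adjusted p under 0.05). From 12 h to 24 h, 9.57% were called higher, TRIB1 among them, and 10.5% lower. A two-sided exact permutation test of 3 libraries against 3 cannot go below p = 0.1, and it gave that value for TRIB1 and TRIB3 at both times.

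TRIB2 encodes the member best known as an oncogene of myeloid leukemia, again through C/EBPα, and lies on chromosome 2 (12716910 to 12742734, plus strand). It measured 0.271, 0.231 and 0.401 FPKM in ADD. It measured 0.303, 0.317 and 0.281 FPKM in DE12 and 0.322, 0.353 and 0.323 FPKM in DE24. These values rest on 35 to 62 fragments per library. The ADD range enclosed both deprived groups, and ADD replicate 3 held the highest value of all, while each DE24 value was slightly above each DE12 value. The means were 0.301 ± 0.0892, 0.301 ± 0.0183 and 0.333 ± 0.0177 FPKM (SD, n = 3 each). Counting error alone would give a coefficient of variation of 14.7% in ADD and 15.02% in DE12, against 29.7% and 6.07% observed.

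TRIB2 did not reach the mean of 0.5 FPKM that genes had to pass to be tested, and its values come from the same limma fit without that filter. The log2 change was 0.02 (95% interval -0.38 to 0.421, adjusted p = 0.993) at 12 h and 0.13 (95% interval -0.268 to 0.532, adjusted p = 0.631) at 24 h. On the scale of log2(FPKM + 0.1) these intervals run from 0.769-fold to 1.34-fold and from 0.830-fold to 1.45-fold. That scale understates the fold of low genes such as TRIB2, so the bounds are wider in plain FPKM. From 12 h to 24 h the change was 0.11 (95% interval -0.289 to 0.511, adjusted p = 0.785). Exact permutation tests gave p = 0.9 at 12 h and p = 0.5 at 24 h against ADD, and p = 0.1, the smallest possible, between the 2 times. On the log2(FPKM + 0.1) scale, a smaller change of TRIB2 than these bounds was not detectable.

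**Figure D1:**
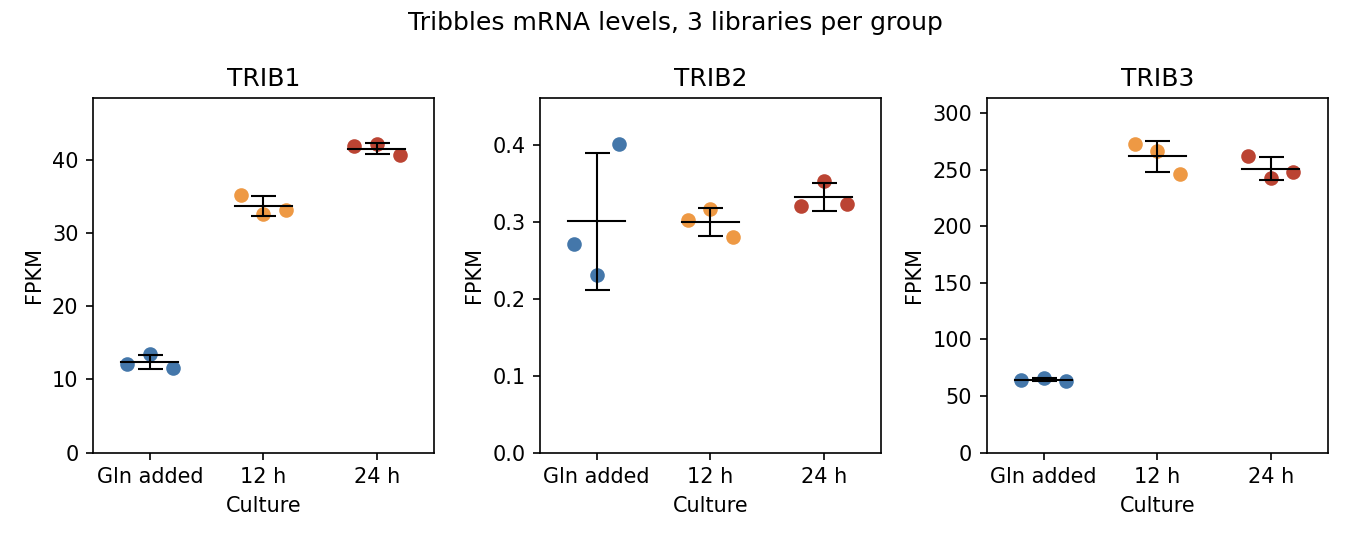
FPKM of TRIB1, TRIB2 and TRIB3 (one panel each, linear axes from 0) in the 3 libraries with Gln added and the 3 libraries each at 12 h and 24 h of deprivation; points are libraries, the long bar is the mean and the error bar 1 SD. TRIB1 steps up at both times, TRIB3 goes from 62.9–65.9 to 242–272 FPKM with overlapping 12 h and 24 h values, and the TRIB2 groups overlap with Gln added between 0.231 and 0.401 FPKM.

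The shares of the members in the family's summed level shifted with deprivation. TRIB3 accounted for 83.5% ± 0.684 of the summed Tribbles FPKM in ADD, 88.5% ± 0.476 in DE12 and 85.7% ± 0.537 in DE24 (SD, n = 3 each). TRIB1 held 16.1%, 11.4% and 14.2%, and TRIB2 0.393%, 0.102% and 0.114%. The ratio of TRIB3 to TRIB1 within a library was 5.31, 4.88 and 5.44 in ADD, 7.73, 8.17 and 7.43 in DE12, and 6.26, 5.75 and 6.10 in DE24. It was thus highest in the 12 h libraries, and no 2 groups overlapped. On the log2 scale the ratio rose by a mean difference of 0.58 from ADD to DE12 and was 0.22 above ADD at 24 h, a difference of -0.36 from DE12 to DE24. Each of these 3 differences gave p = 0.1 in a two-sided exact permutation test, the smallest value possible with 3 libraries against 3. The ratio of TRIB2 to TRIB1 was lower in every deprived library than in every ADD library, by a mean log2 difference of -1.42 at 12 h and -1.61 at 24 h (exact permutation p = 0.1 for both).

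**Figure D2:**
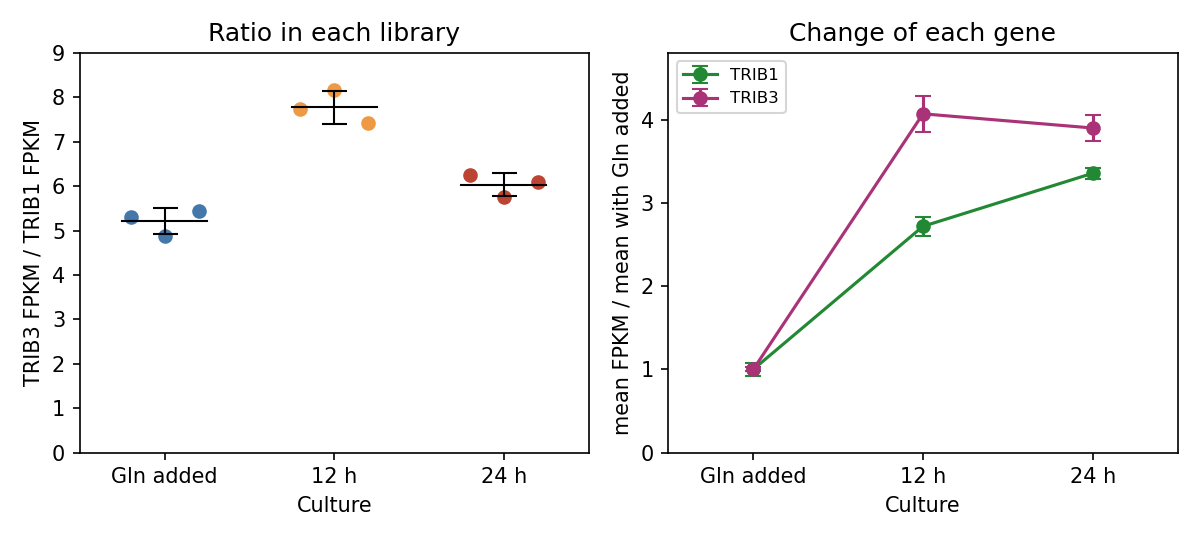
Left, TRIB3 FPKM divided by TRIB1 FPKM in each library by culture (points, with mean and 1 SD); right, mean FPKM of TRIB1 and TRIB3 divided by the mean with Gln added (error bars, 1 SD of the libraries on that scale). The 12 h libraries have the highest ratios (7.43–8.17), the 24 h libraries follow (5.75–6.26) and those with Gln added are lowest (4.88–5.44), while TRIB1 goes from 2.72 to 3.35 times its starting mean and TRIB3 from 4.07 to 3.90 times.

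Other pseudokinases were compared as the members' relatives in kind. With the 3 Tribbles genes, 47 pseudokinase genes had a row in the table. By mean level TRIB3 was 2nd of them in ADD and 1st at 12 h and 24 h. TRIB1 went from 11th to 6th at both times, and TRIB2 was 33rd in ADD and 34th under deprivation. Among the 33 that passed the filter, TRIB3 had the highest change of log2(FPKM + 0.1) and TRIB1 the second highest at each time. SBK3 went from 0.289 FPKM in ADD to 0.629 and 1.11, and passed the filter only through its deprived libraries. Its log2 changes were 0.94 and 1.65, on a scale that understates the fold of low genes. In plain FPKM its fold at 24 h exceeded that of TRIB1. Of the 31 tested pseudokinases outside the family, 11 rose and 9 fell at 12 h and 14 rose and 8 fell at 24 h. Over all genes tested 29.1% rose and 31.0% fell at 12 h, and 33.0% and 31.7% at 24 h. The 31 had median log2 changes of 0.09 at both times beside -0.02 and 0.01 over all genes tested.

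STK40, the close relative of the Tribbles family that also binds COP1, rose from 40.0 ± 0.897 FPKM in ADD to 59.0 ± 1.73 in DE12 and 60.2 ± 1.48 in DE24 (log2 changes 0.56 and 0.59, limma adjusted p = 4.15e-07 and 1.91e-07). IRAK2, of Toll-like receptor signalling, rose by 1.06 and 1.38 on the log2 scale, PXK, a phox-domain protein of endosomes, by 1.02 and 1.19, and ERBB3, the neuregulin receptor, by 0.66 and 0.78. IRAK2 also rose further from 12 h to 24 h, by 0.31 (limma adjusted p = 0.000989). BUB1B, of the mitotic checkpoint, fell by 0.34 at 12 h and 0.96 at 24 h, STRADA, which activates LKB1, fell by 0.52 and 0.68, and MLKL, the effector of necroptosis, fell by 0.74 and 0.55.

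**Figure D3:**
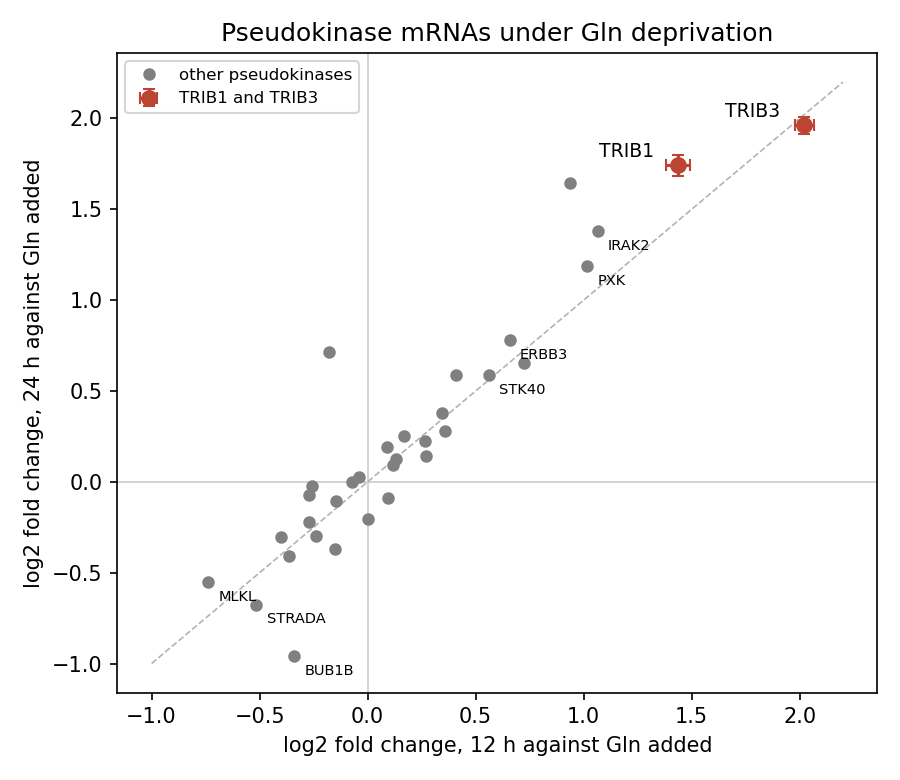
log2 fold change against Gln added of each tested pseudokinase gene, at 12 h (x axis) and 24 h (y axis); red points with 1 SE are TRIB1 and TRIB3, grey points the other 31, and the dashed line marks equal change. Both axes share the libraries with Gln added, so the spread along the line is not evidence of agreement; TRIB3 (2.02, 1.96) and TRIB1 (1.44, 1.74) lie at the upper right, and BUB1B (-0.34, -0.96) lies lowest.

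No change was called for the ligase that Tribbles proteins recruit. COP1 mRNA was 4.21 ± 0.135 FPKM in ADD, 4.30 ± 0.0466 in DE12 and 4.27 ± 0.19 in DE24, with log2 changes of 0.03 (limma adjusted p = 0.678) and 0.02 (limma adjusted p = 0.8). Of 10 genes of the COP1 ligase machinery, 3 rose and 2 fell at 12 h and 3 rose and 3 fell at 24 h, beside 29.1% higher and 31.0% lower over all genes at 12 h and 33.0% and 31.7% at 24 h. With FPKM scaled to equal totals only 1 of the 10, RBX1, was called lower at 24 h. The scaffold CUL4A rose by 0.35 and 0.41 on the log2 scale, and the E2 enzymes UBE2D3, by 0.31 and 0.35, and UBE2D2, by 0.32 and 0.19. The RING subunit RBX1 fell by 0.68 and 0.69 and the adaptor DDB1 by 0.23 and 0.13. DDA1, a DDB1-associated subunit, had a change of 0.03 at 12 h and fell by 0.14 at 24 h, a call also lost without ADD replicate 2 or any 1 DE24 library. The calls for DDB1 and DDA1 at 24 h are those lost with equal totals.

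Proteins that Tribbles members bind or help degrade were followed at the level of their mRNA. Of 29 tested, 18 rose and 5 fell at 12 h and 18 rose and 6 fell at 24 h. Their median log2 change was 0.30 at both times, against -0.02 and 0.01 over all genes tested. Of all genes, 29.1% rose and 31.0% fell at 12 h, and 33.0% and 31.7% at 24 h. The 2 C/EBP substrates went opposite ways. CEBPA, the hepatocyte and myeloid differentiation factor, fell from 70.1 ± 0.51 FPKM to 57.1 ± 2.83 and 45.9 ± 1.97 (log2 changes -0.29 and -0.61, limma adjusted p = 0.000197 and 6.14e-07), and its fall from 12 h to 24 h passed the test too (-0.32, limma adjusted p = 0.00074). CEBPB rose from 30.2 ± 0.582 FPKM to 82.1 ± 3.04 and 84.7 ± 8.51 (log2 changes 1.44 and 1.48). The carboxylase genes ACACA and ACACB, which encode the enzyme that commits acetyl-CoA to fatty acid synthesis, fell by 0.74 and 0.27 at 12 h and by 0.81 and 0.57 at 24 h. The call for ACACB at 12 h was lost without any 1 of the ADD libraries, or without DE12 replicate 1 or 2, and with FPKM scaled to equal totals. DDIT3, encoding CHOP, rose by 1.72 and 1.58, and SQSTM1, the autophagy receptor p62, by 0.95 and 0.99. DDX5, the RNA helicase, rose by 0.33 and 0.40.

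Of genes listed as regulators of TRIB3 transcription, 19 were tested. At 12 h 13 rose and 3 fell, and at 24 h 12 rose and 4 fell. The shares over all genes were 29.1% higher and 31.0% lower at 12 h, and 33.0% and 31.7% at 24 h. ATF4 rose from 41.9 ± 0.751 FPKM to 77.4 ± 2.01 and 75.5 ± 1.06, with log2 changes of 0.88 (limma adjusted p = 7.51e-09) and 0.85 (limma adjusted p = 5.92e-09). ATF3 rose by 1.61 and 1.54 and JUN by 1.41 and 1.37. The study reports that JUN knockdown markedly lowered basal TRIB3 and effectively abolished its rise on Gln starvation. It also reports c-Jun binding at the TRIB3 promoter under deprivation. MYC, whose knockdown in the study did not markedly lower basal TRIB3, rose by 1.08 and 0.82. Its level dropped between the 2 times by 0.26 (limma adjusted p = 0.00932). The genes of 3 of the eIF2α kinases had lower mRNA at both times: EIF2AK1 (HRI) fell by 0.41 and 0.53, EIF2AK2 (PKR) by 0.47 and 0.37, and EIF2AK4 (GCN2, the sensor of uncharged tRNA) by 0.34 and 0.35. EIF2AK3 (PERK) was not called against ADD, at -0.14 and 0.12 (limma adjusted p = 0.056 and 0.107). From 12 h to 24 h it rose by 0.26 (limma adjusted p = 0.0116). All of these kinases act through their activity, which mRNA does not measure.

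**Figure D4:**
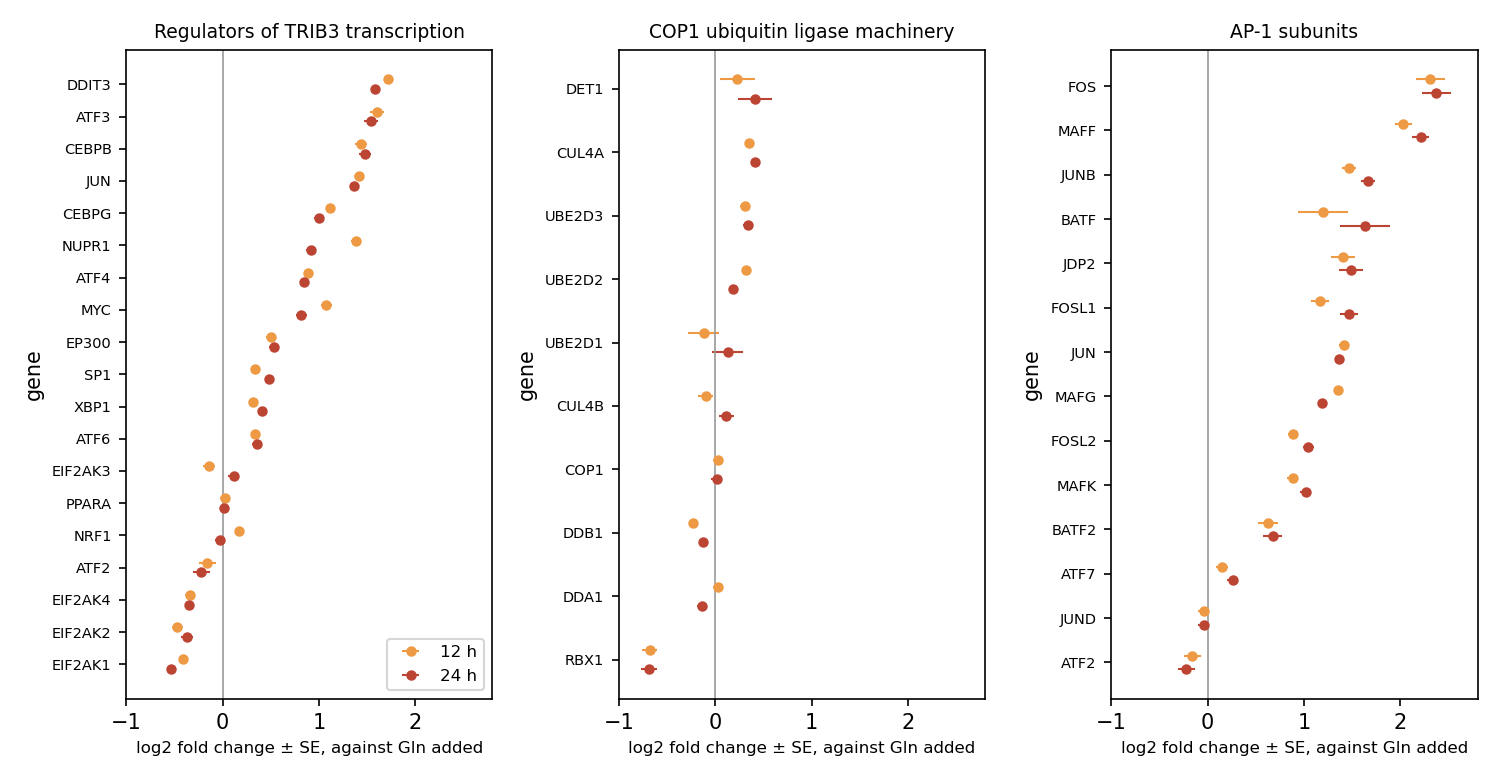
log2 fold change against Gln added at 12 h (orange) and 24 h (dark red), with 1 SE, each panel ordered by the 24 h value. The panels hold tested genes listed as regulators of TRIB3 transcription, genes of the COP1 ligase machinery and AP-1 subunits. DDIT3 heads the regulators at 1.72 and 1.58 with EIF2AK1 at the foot, COP1 sits near 0, RBX1 lies lowest of its panel, and 11 of 14 AP-1 subunits rose at 12 h.

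Other ATF4 targets are the company in which TRIB3 is usually listed. Of 35 tested, 33 rose and 0 fell at 12 h by limma (33 and 0 also at an unadjusted p under 0.05, and by voom on the recovered fragments), and 34 rose and 1 fell at 24 h, with median log2 changes of 1.36 and 1.40. Beside these counts, 29.1% of all genes rose and 31.0% fell at 12 h, and 33.0% and 31.7% at 24 h. The medians over all genes were -0.02 and 0.01. ASNS, SESN2, DDIT3 and CEBPB of this list were among the genes the study chose from the same libraries. Their presence is therefore not an independent choice. PPP1R15A, the GADD34 subunit that directs dephosphorylation of eIF2α, rose by 2.08 and 2.15, close in size to TRIB3. CTH, the last enzyme of transsulfuration, rose by 2.04 and 2.14. ASNS, asparagine synthetase, rose by 3.06 and 2.74 from 0.128 FPKM to 1.81 and 1.43. At this low level the log2(FPKM + 0.1) scale understates the fold. ASNS, JDP2 and ALDH1L2, at 0.128, 0.461 and 0.480 FPKM in ADD, passed the 0.5 FPKM filter only through their deprived libraries. ATF5 was the gene that fell at 24 h, by 0.21, with a change of 0.02 at 12 h.

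AP-1 subunits bind as dimers of FOS, JUN, ATF and MAF relatives. Of 14 tested, 11 rose at 12 h and 12 at 24 h, with median log2 changes of 1.18 and 1.28. Over all genes tested the medians were -0.02 and 0.01. There 29.1% rose and 31.0% fell at 12 h, and 33.0% and 31.7% at 24 h. FOS rose by 2.31 and 2.37 on the log2 scale from 0.224 ± 0.0445 FPKM. MAFF rose by 2.03 and 2.21 and JUNB by 1.47 and 1.67. FOS and JDP2, at 0.224 and 0.461 FPKM in ADD, passed the 0.5 FPKM filter only through their deprived libraries. At such levels the log2(FPKM + 0.1) scale understates the fold. ATF2 was the only one called lower, by -0.22 at 24 h with -0.16 at 12 h, and that call was lost without ADD replicate 1 or 3, DE12 replicate 1 or 2, or DE24 replicate 1, and with FPKM scaled to equal totals. The lists overlap: DDIT3, CEBPB, JUN and others stand in more than 1 of them.

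Hepatic lipid genes tied to TRIB1 went mostly down. Of 21 tested, 2 rose and 13 fell at each time. Their median log2 changes were -0.29 and -0.26, against -0.02 and 0.01 over all genes tested. With FPKM scaled to equal totals 4 rose at 12 h. By comparison, 29.1% of all genes rose and 31.0% fell at 12 h, and 33.0% and 31.7% at 24 h. MLXIPL, which encodes the glucose-responsive factor ChREBP, rose by 0.34 and 0.38, and GPAM, the first enzyme of glycerolipid synthesis, rose by 0.36 and 0.24. FASN, fatty acid synthase, fell from 165 ± 4.23 FPKM to 74.3 ± 3.98 and 74.3 ± 3.72. PNPLA3, the lipid droplet protein, fell by 1.77 and 1.81 and APOC3, the inhibitor of triglyceride clearance, by 0.74 and 0.97.

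Genes with the profile most like each member were ranked by the Euclidean distance over the 9 libraries, each gene taken relative to its ADD mean on the log2 scale. INHBE, an inhibin beta subunit made by the liver, was nearest to TRIB3 of 10867 genes compared, at a distance of 0.155. It went from 13.0 FPKM in ADD to 55.02 in DE12 and 49.6 in DE24. GTPBP2 (0.383), the uncharacterized FLJ46906 (0.383), PPP1R15A (0.384) and IER3 (0.409) followed, and 9 genes in all lay within 0.5 of TRIB3. Around TRIB1 the same distance held 26 genes. Among the nearest were HIVEP2 (0.287), PABPC1L (0.296), SPRY4 (0.310) and LOC112268058 (0.331). Genes entered this search at a mean of 1 FPKM or more over the 9 libraries. HIVEP2 and LOC112268058, at 0.823 and 0.601 FPKM in ADD, passed that bound only through their deprived libraries. SPRY4, a feedback inhibitor of receptor tyrosine kinase signalling, went from 6.90 to 18.2 and 21.2 FPKM. TRIB2 had 527 genes within 0.5, with CBLC, TAF12, C7orf25, MPHOSPH8 and RANBP3 nearest at 0.298 to 0.340. All these profiles share the same libraries and their depths.

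The chromosomal neighbours of TRIB3 changed far less than it did. On the side of lower coordinates NRSN2-AS1 and NRSN2 passed no test against ADD, and SOX12 rose by 0.22 at 12 h. On the other side RBCK1, a subunit of the linear ubiquitin ligase, rose by 0.40 and 0.61, TBC1D20 by 0.39 and 0.41, and CSNK2A1, the catalytic subunit of casein kinase 2, by 0.23 and 0.19. Around TRIB2, LPIN1 fell by 0.43 at 12 h only by the test, NBAS fell by 0.14 and 0.22 and DDX1 by 0.20 and 0.21, GREB1 passed no test, and NTSR2 and LRATD1 were too low to be tested. In GENCODE v44 the 3 Tribbles genes overlap no exon of another annotated gene on either strand. The lengths behind their FPKM differ from those of the GENCODE exons. Whether the libraries kept strand is open, and its part in their values outside that annotation was not tested.

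**Figure D5:**
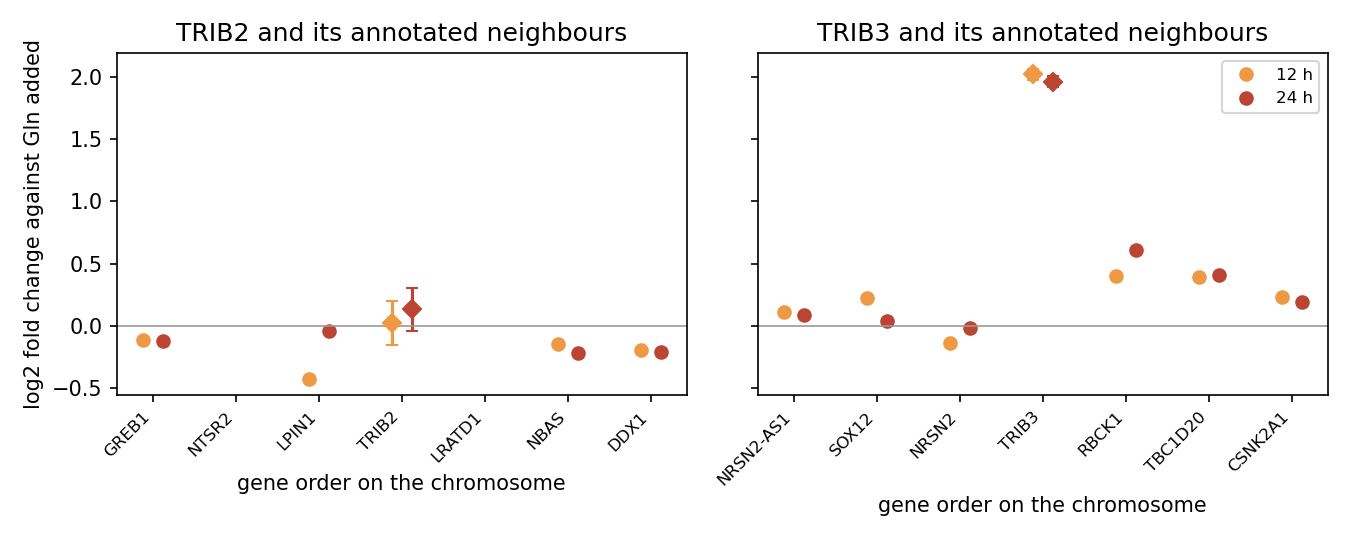
log2 fold change against Gln added of TRIB2 and TRIB3 (diamonds, with 1 SE) and of the 3 nearest genes of the table on each side (circles), in chromosomal order, at 12 h (orange) and 24 h (dark red); genes without a point were too low to be tested. TRIB3 stands at 2.02 and 1.96 while its neighbours reach at most 0.61, and TRIB2 lies at 0.02 and 0.13 from the fit without the filter.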

How the data were processed

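The authors deposited 1 table of FPKM values per gene for 9 HepG2 libraries. The study's methods give STAR alignment to GRCh38; the submitters' processing notes name HTSeq and R 3.2.0. The labels and the methods name different library kits, so strandedness is not settled. For 100% of genes the FPKM values came back as whole fragments (tolerance 0.004 fragments), which gave each library's depth and the fragment counts used here.

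limma 3.58.1 (R 4.3.3; lmFit, eBayes with trend) was fitted on log2(FPKM + 0.1) for the 11880 genes that averaged 0.5 FPKM or more over the 9 libraries, all 3 groups together, with Benjamini-Hochberg adjustment over all genes tested and a threshold of 0.05. All adjusted p-values are from this fit, and for TRIB2 from the fit without the filter. The study's methods name DESeq2, which was not run as the main test because the unit is FPKM. DE12 and DE24 share the ADD libraries. Single values and ratios were compared by two-sided exact permutation tests (Python 3.11.15, scipy 1.17.1). The limma fit was also run on simulated data, with far fewer changed genes than were called here and the same noise for every gene. That run does not measure the error rate of the calls in these data.

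From each gene list the text names preset genes and, in each direction, up to 3 with the largest change at 24 h among called genes that averaged 1 FPKM or more; it also names the 5 nearest profiles per member, of which 1 is not reported here, and 3 neighbours on each side of TRIB2 and of TRIB3. SBK3, EIF2AK3, JDP2 and ALDH1L2 are named outside this rule. Neighbours and upstream sequence of TRIB1 were not analysed here. The members and lists were chosen with earlier results of these data known. Gene positions are from GENCODE v44.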

Additional observations from a re-analysis of the deposited data

Results flagged for a closer look

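The deprivation effect on TRIB1 differed between the 2 times. Its log2 change against ADD at 24 h exceeded that at 12 h by 0.3036 (SE 0.056, adjusted p = 0.00384 by limma), and each of the 3 libraries at 24 h was above each of the 3 at 12 h. Both effects use the same ADD libraries, so the difference equals the direct comparison of DE24 with DE12.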

How the results depend on the processing

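The rises of TRIB1 and TRIB3 at 12 h and 24 h kept their direction and their call under every alternative run: pseudocounts of 0.01 and 1, no filter or a filter at 1 FPKM, a fit of only the 2 groups compared, eBayes without trend, equal FPKM totals, scaling by median ratios, a replicate block, voom on the recovered fragments, and each library left out in turn. Across the library left out, the log2 change of TRIB3 was at lowest 1.99 (12 h) and 1.93 (24 h), that of TRIB1 at lowest 1.39 and 1.69, and the further rise of TRIB1 was 0.28 to 0.34. The change of TRIB2 at 12 h, which passed no test, ranged from -0.11 to 0.19 with 1 library left out and so changed sign, and its change from 12 h to 24 h was 0.035 with a pseudocount of 1, as that pseudocount shrinks changes of low genes. Likewise uncalled, ATF5 at 12 h ranged from -0.014 to 0.054 and COP1 at 24 h from -0.0090 to 0.053, below 0 without ADD replicate 3 for both, without DE12 replicate 1 for ATF5 and without DE24 replicate 1 for COP1. The number of genes called between 12 h and 24 h ranged from 1652 to 2515 with 1 library left out, against 2386.

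Same-numbered libraries did not consistently deviate together (correlations of -0.136 to 0.283, with 2 of 9 pairs over 0.1). Of the 9 libraries, 3 correlated best with their own number, so the numbers were not taken to pair samples. Different-numbered libraries gave correlations of -0.467 to 0.296, with both ends between a DE12 and a DE24 library. What those libraries share across numbers was not tested. With a replicate block 7341 genes were called at 12 h and 7802 at 24 h, against 7147 and 7686 without it; TRIB1 and TRIB3 kept their calls. Depth limits TRIB2, which rests on 35 to 62 fragments per library.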
